A study of Mus musculus with 24 samples.

Results

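The exonic peaks described here are regions of open chromatin in murine germinal center B (GCB) cells that lie on coding exons, away from gene starts. They are the autosomal peaks of the deposited consensus set that overlap a coding sequence (CDS) of a protein-coding gene of the mouse mm10 GENCODE annotation by 50 bp or more and lie more than 5000 bp from every annotated transcription start site (TSS). The rule took 1844 of 65483 peaks (2.82%), in 1540 host genes, and used no accessibility value.

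Open DNA was cut and tagged by a transposase (ATAC-seq) in 60000 sorted splenic GCB cells per library, 10 days after immunization with sheep red blood cells (SRBC). All mice carried 1 Cγ1-cre allele (Cg1Cre+/-), which drives recombination in B cells that enter the GC response. WT mice (n = 4) carried Cg1Cre+/- alone, C mice (n = 4) also Crebbp fl/+, K mice (n = 4) also Kmt2d fl/+, and CK mice (n = 5) both floxed alleles, each with 1 intact copy left. The mice were young adults, and each library is a separate mouse, so the errors below are between mice.

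Crebbp encodes a histone acetyltransferase and Kmt2d a histone methyltransferase, which place active marks at enhancers, and both genes are often mutated in lymphomas that arise from GCB cells. Coding exons are usually higher in GC content than the introns around them, and some regulatory elements lie within or across exons of genes other than their targets. A peak that crosses an exon may therefore be mostly intron, and the share of each peak that is coding sequence is given throughout.

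The libraries held 17483706 to 21857738 fragments in peaks, and log2 CPM (CPM, a peak's share of all fragments in peaks on a parts-per-million scale, after TMM scaling of library sizes) of replicate mice correlated at 0.979 to 0.989 across peaks. Peaks within 1000 bp of the starts of 6 B cell and 6 GC B cell marker genes were present for all 12 genes, with summed levels of 444 to 520 and 302 to 379 CPM over the 17 libraries. None of 6 T cell genes, Cd3e and Cd4 among them, had such a peak, and 2 of 6 myeloid genes did, with sums of 6.13 to 8.71 CPM. All 5 plasma cell genes, which GCB cells can also use, had a peak (241 to 268 CPM), and 2 of 4 erythroid genes did (46.3 to 56.2 CPM, mostly at Klf1). Signal at male-specific Y chromosome peaks was present in 9 libraries (2 WT, 2 C, 3 K and 2 CK) and near 0 in 8, so each genotype held both kinds of mice. This goes against the study's description of the ATAC-seq mice, which are given as female.

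The sequences of 4 exonic peaks are shown, picked to let the contrast between windows filled by an exon and windows that only cross one be seen. The first pair was more accessible in CK and the second pair less. Each is 240 bases of the mm10 reference (RefSeq), 5′ to 3′ in the sense of the gene, with coding bases in capitals and intron in lower case.
Kcnk12, chr17:87746273-87746512, minus strand: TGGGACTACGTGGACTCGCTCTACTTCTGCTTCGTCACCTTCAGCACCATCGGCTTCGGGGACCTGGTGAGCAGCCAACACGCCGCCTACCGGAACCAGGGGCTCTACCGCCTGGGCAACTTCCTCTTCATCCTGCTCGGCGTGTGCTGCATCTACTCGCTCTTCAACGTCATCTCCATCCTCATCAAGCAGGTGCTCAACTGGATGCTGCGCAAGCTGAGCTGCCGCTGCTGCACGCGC
Foxo6, chr4:120268519-120268758, minus strand: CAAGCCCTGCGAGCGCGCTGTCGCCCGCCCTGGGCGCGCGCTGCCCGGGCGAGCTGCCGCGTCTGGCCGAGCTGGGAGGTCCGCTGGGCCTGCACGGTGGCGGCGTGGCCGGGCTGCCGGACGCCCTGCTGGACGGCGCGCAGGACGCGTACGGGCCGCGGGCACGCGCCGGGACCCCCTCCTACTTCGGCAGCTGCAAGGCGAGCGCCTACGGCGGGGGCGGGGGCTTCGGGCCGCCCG
Ryr1, chr7:29009009-29009248, minus strand: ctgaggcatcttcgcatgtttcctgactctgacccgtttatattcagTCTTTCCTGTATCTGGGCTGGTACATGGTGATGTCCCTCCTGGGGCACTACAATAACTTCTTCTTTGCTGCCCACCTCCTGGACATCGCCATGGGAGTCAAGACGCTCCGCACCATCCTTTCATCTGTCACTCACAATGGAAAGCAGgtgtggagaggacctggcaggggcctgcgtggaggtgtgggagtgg
Rere, chr4:150508773-150509012, plus strand: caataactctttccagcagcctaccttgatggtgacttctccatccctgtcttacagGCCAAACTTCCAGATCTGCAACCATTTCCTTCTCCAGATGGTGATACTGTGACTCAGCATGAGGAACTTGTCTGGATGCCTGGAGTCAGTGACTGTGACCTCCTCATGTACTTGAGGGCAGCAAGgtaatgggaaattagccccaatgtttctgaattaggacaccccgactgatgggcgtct
All 240 bases of the Kcnk12 and Foxo6 windows were coding, against 147 in Ryr1 and 125 in Rere, where both splice junctions of the exon can be seen. The windows held 17, 40, 6 and 2 CG dinucleotides and 60.8%, 80.8%, 54.6% and 49.2% GC, in the order shown. The contrast in coding bases did not hold at every called peak. Windows of this length held 115 coding bases in Msi2, gained in CK, and 240 in Bptf, lost in CK.

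The 1844 exonic peaks had a median length of 973 bp, of which a median 14.7% was CDS. Only 155 were at least 50% CDS and 41 were CDS throughout, while 250 crossed more than 1 coding exon and the most exons in 1 peak was 5. In the principal transcript of each host gene, 1438 lay on inner coding exons, 313 on the last and 26 on the first, and 67 touched CDS of other transcripts of the gene only. They lay late in their genes, at a median of 74.6% of the gene body, with 914 beyond 75% of it and 106 within the first 25%. The median distance to the nearest TSS was 10851 bp and the longest 145176 bp. Their median GC content was 48.4%, against 45.6% in the 14490 intronic peaks, 46.8% in the 13438 intergenic peaks, all over 5000 bp from a TSS, and 51.3% in the 31584 peaks within that distance. Median WT accessibility was 4.11 CPM per kb in exonic, 3.64 in intronic, 3.75 in intergenic and 8.47 in TSS-near peaks. Exonic peaks held 1.76% of all fragments in peaks.

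WT levels of exonic peaks ran from 0.0905 to 167 CPM. The highest per kb included peaks on exons of Pik3c2b, a lipid kinase, Rab11fip3, Med29, a Mediator subunit, Plekha2, St3gal2, a sialyltransferase, Vav2, a guanine nucleotide exchange factor of antigen receptor signaling, Wdr66, Scn4a, a muscle sodium channel, and Flt3, a receptor tyrosine kinase. The Pik3c2b peak on coding exon 12 of 32 was at 113, 117, 114 and 133 CPM in WT mice 1 to 4. In CK mice it was at 112, 106, 108, 109 and 113 CPM, and before rounding every CK mouse lay below every WT mouse. None of these 9 peaks passed the test in C, K or CK, and their log2 fold changes in CK lay from -0.12 (Pik3c2b and Vav2) to 0.07 (St3gal2). The host genes with most exonic peaks were Akap13 and Slit1 with 6 each, Ryr1 with 5, and Fam129a and Snx29 with 4 each, and 1293 genes had 1.

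Whether heterozygous loss of Crebbp, Kmt2d or both changes accessibility was tested by edgeR's quasi-likelihood test over all 65483 peaks, with Benjamini-Hochberg adjustment, and a peak was called gained or lost at an adjusted p below 0.01. In CK, 59 exonic peaks (3.20%) were gained and 94 (5.10%) were lost, where 3.54% of all peaks were gained and 3.3% lost. With Y chromosome signal as a covariate these counts were 69 and 119. In K, 12 were gained (0.651%) and 31 lost (1.68%), beside 0.647% and 0.828% of all peaks. In C, 1 was gained and 2 were lost, beside 0.0596% and 0.101% of all peaks, shares near the background. The shares gained and lost in CK were 1.43% and 4.11% in intronic peaks, 1.86% and 3.45% in intergenic peaks and 5.40% and 2.76% in TSS-near peaks. The median log2 fold change of exonic peaks was 0.01 in C and -0.01 in K as in CK, and that of all peaks was 0.00 in each of these comparisons. The 153 calls in CK lay in 147 host genes. Every CK mouse lay on one side of every WT mouse at 286 exonic peaks (15.5%), beside 13% of all peaks. For K this was so at 13.9% of exonic peaks against 11.3% of all, and for C at 5.42% against 5.66%.

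Gained peaks in CK rose by a median of 0.52 on the log2 scale (0.31 to 2.31), and lost peaks fell by a median of 0.50 (0.18 to 1.39). At the 59 gained peaks the median log2 fold changes in C and K, which share the WT mice with CK, were 0.21 and 0.42. At the 94 lost peaks these were -0.11 and -0.36. Changes of about these sizes were recovered only in part in simulated counts with 200 of 65483 peaks changed in CK. Of the 200, 68 were recovered against WT at a change of 1.5 times and 145 at 2 times. In the data 2320 peaks were gained and 2158 lost. The adjusted threshold depends on how many peaks change, so recovery in the data can differ.

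Among the named gained peaks, that of Kcnk12, a potassium channel gene, lay on the last of 2 coding exons (mm10 chr17:87745764-87746968) and was 74.6% CDS. Its accessibility was 8.3, 10, 12.9 and 14.1 CPM in WT mice, 9.63, 12.9, 16.2 and 10.1 in C mice, 12.8, 15.8, 20.7 and 19.4 in K, and 18.3, 27.3, 28.2, 23.7 and 25.8 in CK. All 5 CK mice were above all WT and C mice, with a log2 fold change of 1.12 ± 0.16 (SE; edgeR adjusted p = 6.02e-05) against WT and 1.01 ± 0.16 against C (edgeR adjusted p = 0.00084). With offsets for GC content the difference from C was 0.77 and no longer passed the test. Foxo6, a forkhead transcription factor gene, had a peak of 651 bp that was 100% CDS and 77.6% GC (chr4:120268313-120268963). Its levels were low, at 0.266, 0.47, 0.422 and 0.388 CPM in WT, 0.661, 0.586, 0.809 and 0.796 in C mice, 0.902, 0.793, 0.785 and 1.02 in K, and 1.38, 0.754, 1.18, 1.05 and 1.33 in CK. Every mutant mouse was above every WT mouse, and the log2 fold change was 0.86 ± 0.29 in C (edgeR adjusted p = 0.291), 1.17 ± 0.28 in K (0.0153) and 1.54 ± 0.26 in CK (0.000279), of which CK alone passed.

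Uvrag, a gene of autophagy and endosome traffic, had a peak of 1737 bp on its last coding exon, 15 (chr7:98887818-98889554, 40.3% CDS). It was at 21.7, 21.4, 22.4 and 19.4 CPM in WT and 29.1, 29.1, 27.5, 32.4 and 32.3 in CK, with K at 27.6, 25.8, 28.8 and 26.2 and C at 24.3, 26.5, 31 and 27.4. All mutant mice were above all WT mice, and the log2 fold change was 0.50 ± 0.071 in CK (edgeR adjusted p = 5.18e-05), 0.35 ± 0.075 in K (0.00735) and 0.36 ± 0.074 in C (0.0223, which did not pass). The peak of 1700061G19Rik (chr17:56883631-56885273) went from 3.05 to 4.1 CPM in WT to 4.63 to 7.62 in CK, a log2 fold change of 0.82 ± 0.13 (edgeR adjusted p = 0.000219).

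Msi2, which encodes an RNA-binding protein of stem cells, held the exonic peak called in C, K and CK alike as gained (chr11:88394549-88395390, coding exon 9 of 13, 13.7% CDS). WT mice had 0.106, 0.418, 0.328 and 0.388 CPM, C mice 2.55, 1.71, 1.52 and 2.6, K mice 1.8, 1.36, 2.25 and 2.72, and CK mice 2.26, 1.67, 1.14, 0.498 and 2.36. No mutant mouse overlapped the WT mice, although CK mouse 4 was close to them. The log2 fold changes were 2.73 ± 0.41 in C, 2.70 ± 0.41 in K and 2.31 ± 0.42 in CK (edgeR adjusted p = 0.001, 0.000652 and 0.000581), all against the same 4 WT mice. The peak lies in a window of 5 Mb in which 11 peaks of any class were called in C, and 43 exonic peaks lay in the 6 windows with at least 5 such calls. Mroh2a, in another of these windows with 9 calls, had the lost peak called in all of them (chr1:88246637-88248055). It was at 17.7, 18.2, 18.4 and 19.8 CPM in WT, 9.68, 9.2, 6.77 and 9.13 in C mice, 7.54, 7.65, 10.8 and 13.7 in K and 7.24, 8.67, 8.76, 9.81 and 13.1 in CK. Its log2 fold changes were -1.09 ± 0.16, -0.89 ± 0.16 and -0.97 ± 0.15 (edgeR adjusted p = 0.000814, 0.00211 and 0.00013). What these neighbouring calls contribute was not tested. The other lost peak in C was in Timd2, a TIM family receptor gene (-0.85 ± 0.15, edgeR adjusted p = 0.0051), and that call was lost when any 1 WT or C mouse was left out.

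The 94 lost peaks had medians of 8.17% CDS, an exon of 112 bp and 13.5 CPM in WT, and the 59 gained peaks 27.7%, 234 bp and 5.55 CPM. Ryr1, the calcium release channel of skeletal muscle, had its lost peak at coding exon 100 of 106 (chr7:29006927-29009279, 12% CDS). WT mice were at 37.4, 35.7, 38.1 and 38.1 CPM, C mice at 32, 34.3, 31.5 and 34.6, K mice at 26.4, 31.9, 27.2 and 32.8, and CK mice at 26.6, 23.7, 28.2, 24.5 and 27.4. The groups WT and CK were far apart, and the peak fell by 0.51 ± 0.066 on the log2 scale in CK (edgeR adjusted p = 2.08e-05) and by 0.33 ± 0.069 in K (0.00627). None of the 4 other exonic peaks of Ryr1 passed in any genotype, with log2 fold changes in CK of 0.06 to 0.55. Rere, a nuclear corepressor gene, had its peak at coding exon 8 of 22 (chr4:150508576-150509582, 12.4% CDS), at 20.3, 19.2, 17.9 and 22.1 CPM in WT, 19.2, 17.8, 18.5 and 18.8 in C mice, 13.5, 13, 14.4 and 16.2 in K and 13.9, 14, 12.4, 13 and 12.2 in CK. K and CK lay below WT and C in every mouse, and the log2 fold change in CK was -0.60 ± 0.079 (edgeR adjusted p = 2.75e-05).

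Naa25, a subunit of an N-terminal acetyltransferase, lost its exon 13 peak (chr5:121424506-121425607) from 3.72, 4.49, 5.25 and 4.87 CPM in WT to 1.77, 1.78, 2.04, 1.2 and 2.82 in CK. K mice, at 2.76, 3.28, 2.15 and 3 CPM, were below all WT mice and overlapped CK, and C mice, at 3.78, 3.74, 4.95 and 4.88, overlapped WT. The log2 fold change in CK was -1.27 ± 0.18 against WT (edgeR adjusted p = 4.34e-05) and -1.18 ± 0.18 against C (0.000605). Izumo1r, the folate receptor family gene also known from the egg surface, had a lost peak (chr9:14893361-14894880) with 6.81, 7.42, 8.25 and 11.9 CPM in WT and 3.84, 3.77, 4.31, 5.03 and 4.21 in CK (-1.02 ± 0.14, edgeR adjusted p = 5.27e-05). Slc9a8, a sodium and proton exchanger gene, fell by 0.81 ± 0.11 on the log2 scale (chr2:167467016-167468915, edgeR adjusted p = 4.92e-05). Lrrfip1 fell by 1.39 ± 0.20 (chr1:91085844-91087452, edgeR adjusted p = 4.97e-05), with 4 CK mice at 4.53 to 5.54 CPM and CK mouse 5 at 10.9, below the WT range of 15.3 to 16.9. Its C mice, at 6.61 to 9.1 CPM, and K mice, at 6.7 to 13.7, were also below every WT mouse. The log2 fold changes were -1.01 in C (edgeR adjusted p = 0.0169) and -0.57 in K (0.0881), which did not pass.

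**Figure D1:**
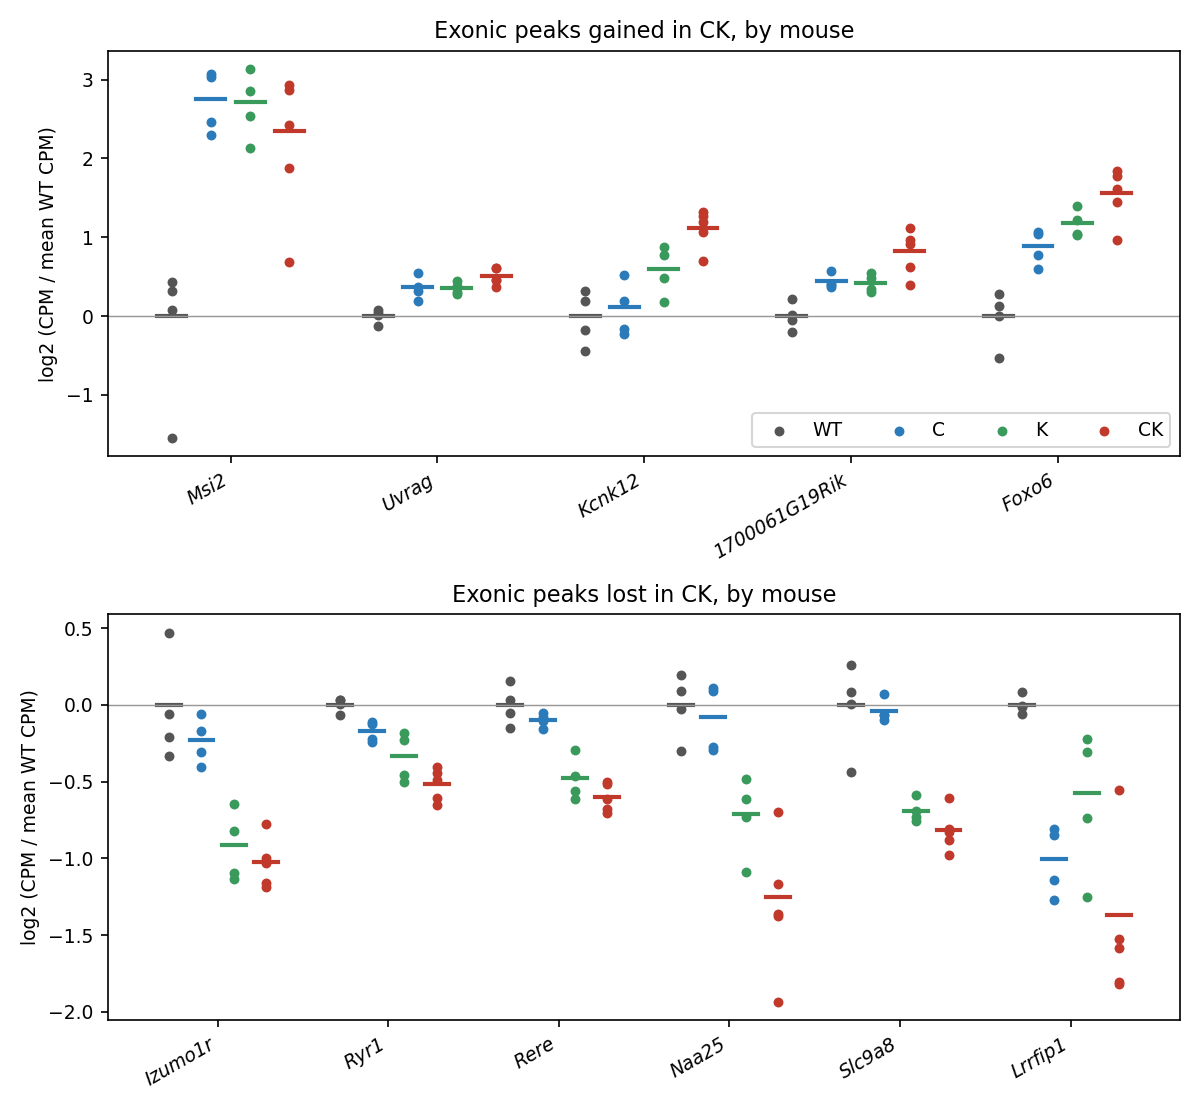
Accessibility of 5 gained and 6 lost exonic peaks among those with the lowest adjusted p in CK against WT. Each point is 1 mouse as log2 of its CPM over the mean WT CPM of that peak, and bars are the log2 of each group's mean (WT, C and K n = 4, CK n = 5). Msi2 is raised in C, K and CK, while Naa25 and Slc9a8 are lower in K and CK and C overlaps WT.

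In K against WT, the lost peak with the lowest adjusted p was that of Slc11a2, an iron transporter gene (chr15:100388107-100390116). It was at 17.5, 18.9, 18.7 and 17.9 CPM in WT and 12.5, 11.3, 12.9 and 12.2 in K (-0.58 ± 0.085 on the log2 scale, edgeR adjusted p = 0.0005), and CK mice lay between at 13.3 to 17.1. Gab2, a signaling adaptor, was at 4.47, 4.33, 4.12 and 4.37 CPM in WT and 1.75, 2.32, 2.46 and 2.81 in K (-0.88 ± 0.14, edgeR adjusted p = 0.0012). Slc5a10, a sugar transporter, fell by 0.86 ± 0.14 and Clic4, a chloride channel family gene, by 0.41 ± 0.072. Without WT mouse 4 the call of Clic4 (-0.37) was lost. Among the gained peaks, Ret, a receptor tyrosine kinase gene, went from 24.7, 22.4, 23.4 and 27 CPM in WT to 34.8, 34.8, 30.1 and 32.8 in K, and C mice at 22.9, 24.3, 22.8 and 23.5 overlapped WT. Its log2 fold change was 0.44 ± 0.063 against WT (edgeR adjusted p = 0.00038) and 0.50 ± 0.063 against C (9.56e-05). Bmp1, a procollagen-processing protease gene, rose by 2.46 ± 0.42 in K (edgeR adjusted p = 0.00148), from 0.418 to 0.664 CPM to 3.02, 3.17, 0.89 and 4.89, which are widely spread. Myo3b (0.35 ± 0.058) and Kndc1 (0.60 ± 0.11) also rose, Kndc1 not when WT mouse 4 was left out (0.55).

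Between the mutant genotypes, no exonic peak passed in CK against K by edgeR, where 0.00916% of all peaks did, and 2 were called by DESeq2. An unadjusted edgeR p under 0.05 was found at 154 of 1844 exonic peaks, beside 4814 of all 65483 peaks. When CK was compared with the single-genotype changes added together, there were also 0 calls by edgeR, beside 0.0107% of all peaks, and 1 by DESeq2. Here 81 exonic peaks and 2444 of all peaks had an unadjusted edgeR p under 0.05. Against C, CK had 10 exonic peaks higher (0.542%) and 33 lower (1.79%), beside 0.907% and 0.77% of all peaks. K had 9 higher (0.488%) and 18 lower (0.976%) than C, beside 0.283% and 0.505% of all peaks. Tyw1, of transfer RNA modification, was lower in K (10.6, 10.3, 14.8 and 14.6 CPM) than in C (22.4, 20.2, 20.7 and 20.9; -0.74 ± 0.11, edgeR adjusted p = 0.000425), while CK mice at 17.1 to 20.4 CPM overlapped WT. Adss, of purine synthesis, was also lower in K than in C (-0.92 ± 0.13, edgeR adjusted p = 0.000365). Siglec15, a sialic acid-binding receptor gene, was higher in CK than in C (0.48 ± 0.072, edgeR adjusted p = 0.000587).

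The direction of change went with the share of the peak that was coding sequence, in classes set after the values were seen and so given without a test. Of the 1350 peaks under 25% CDS, 27 were gained and 92 lost in CK, with a median log2 fold change of -0.06. Of the 339 with 25 to 50% CDS, 18 were gained and 2 lost (median 0.10), and of the 155 with 50% or more, 14 were gained and 0 lost (median 0.20). In K the counts in the same order were 8 and 30, 3 and 1, and 1 and 0, with medians of -0.05, 0.09 and 0.19, and in C the medians were 0.00, 0.04 and 0.06. GC content and level moved with the classes: median GC rose from 47.1% to 51.9% and 55.9%, and median WT level fell from 5.08 to 2.14 and 1.48 CPM. With offsets fitted per GC content bin, the CK counts were 29 gained and 83 lost, 11 and 6, and 3 and 2, and the medians -0.04, 0.06 and 0.07. Over all peaks that scaling changed 2320 gained and 2158 lost into 1470 and 3342, and over the exonic peaks 59 and 94 into 43 and 91. The peaks of 50% or more CDS held 14 gained in the main test and 13 with level-dependent offsets, 15 by DESeq2, 5 without WT mouse 3 and 4 without WT mouse 4, with none lost in these fits. Over all peaks, 1384 were gained without WT mouse 3 and 1150 without WT mouse 4, beside 2320 in the main test.

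**Figure D2:**
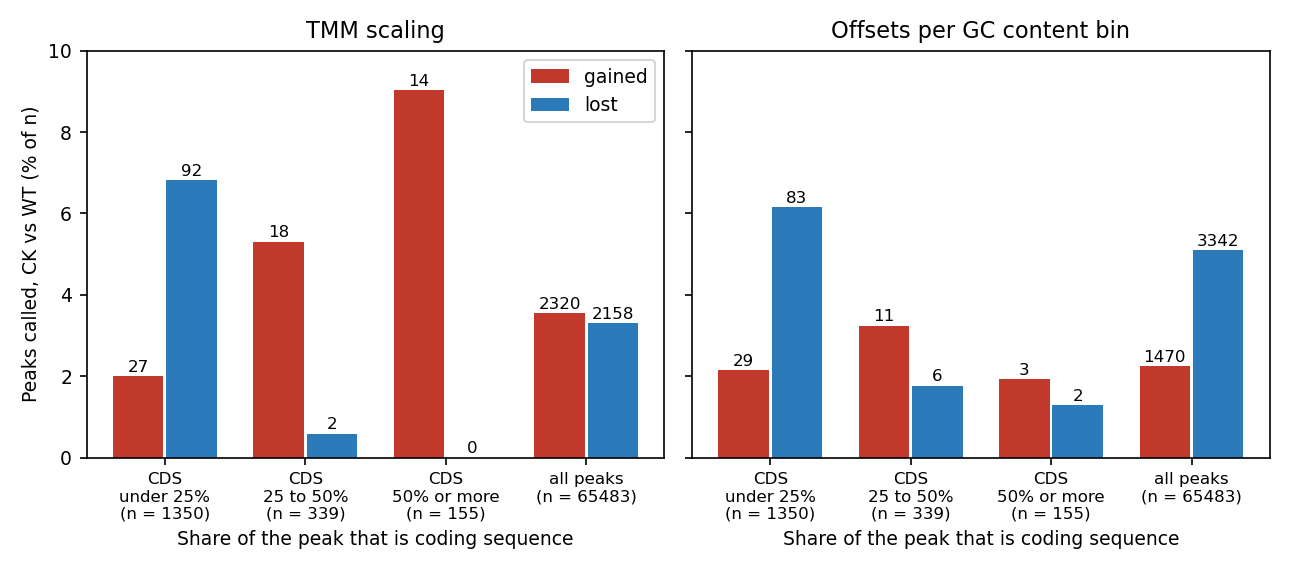
Share of exonic peaks called gained or lost in CK against WT, by the share of the peak that is CDS, beside all peaks, with TMM scaling on the left and offsets per GC content bin on the right. Numbers over the bars are counts of peaks. The excess of gained peaks among those of 50% or more CDS (14 and 0) is 3 and 2 with GC offsets.

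The pattern was also read per mouse, from the same peaks, libraries and classes, so it is not separate support. Relative to the rest of the peak set, the 155 peaks of 50% or more CDS had a mean log2 CPM of -1.381 ± 0.012 (SD, n = 4) among WT mice, -1.322 ± 0.036 in C (n = 4), -1.199 ± 0.038 in K (n = 4) and -1.183 ± 0.040 in CK (n = 5). The highest WT mouse (-1.373) was below the lowest C (-1.354), K (-1.235) and CK (-1.251) mice. For peaks under 25% CDS the values were 0.144 ± 0.036 in WT and 0.090 ± 0.022 in CK, and these overlapped, at 0.098 to 0.178 and 0.072 to 0.121. With GC offsets the difference of CK from WT in peaks of 50% or more CDS went from 0.198 to 0.098, and that of K from 0.182 to 0.100. All K and CK mice stayed above all WT mice with these offsets (lowest K -1.269 and CK -1.278, highest WT -1.290), while C mice, at -1.306 to -1.262, overlapped WT. Over all exonic peaks the difference of CK from WT was -0.006, less than the SD between WT mice (0.030).

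**Figure D3:**
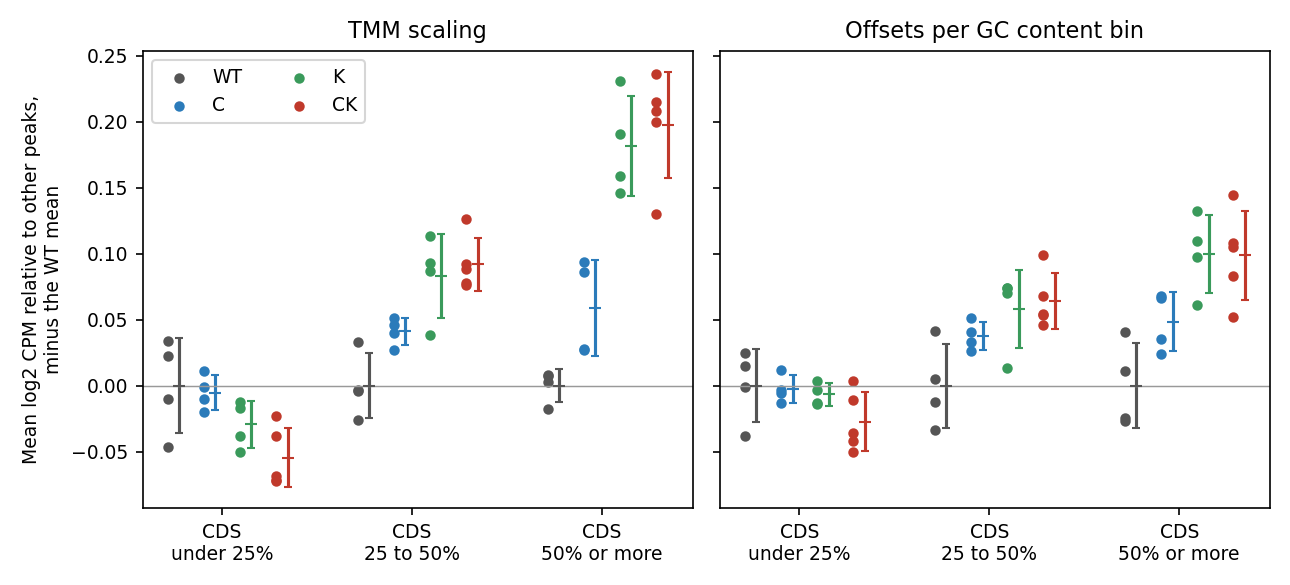
Mean log2 CPM of exonic peaks relative to all other peaks, less the WT mean, in 3 classes of CDS share. Points are mice and bars beside them mean ± SD (WT, C and K n = 4, CK n = 5), with TMM scaling on the left and GC offsets on the right. K and CK are 0.182 and 0.198 above WT at 50% or more CDS with TMM scaling, and 0.100 and 0.098 with GC offsets.

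Within quartiles of GC content the median change differed with CDS share in the GC-rich quartiles, and the share gained rose with it in the highest one. In the highest GC quartile, 207 peaks under 25% CDS had 6 gained and 7 lost in CK (median 0.05), 156 of 25 to 50% had 15 and 0 (0.16), and 98 of 50% or more had 14 and 0 (0.27). In the third quartile the medians also rose with CDS share, at 0.00, 0.15 and 0.26 in 358, 76 and 27 peaks, but the share gained did not, with 14 gained and 17 lost under 25% CDS, 1 and 0 at 25 to 50%, and 0 and 0 at 50% or more. In the lowest quartile they were -0.12, -0.06 and -0.06 in 403, 46 and 12 peaks, and in the second -0.09, 0.01 and -0.09, the last in 18 peaks. The other autosomal peaks over 5000 bp from a TSS had medians of -0.08, -0.04, 0.00 and 0.07 across the same GC bounds. Even within the highest quartile GC was not equal, at medians of 55.2%, 56.8% and 60.1% for the 3 classes.

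**Figure D4:**
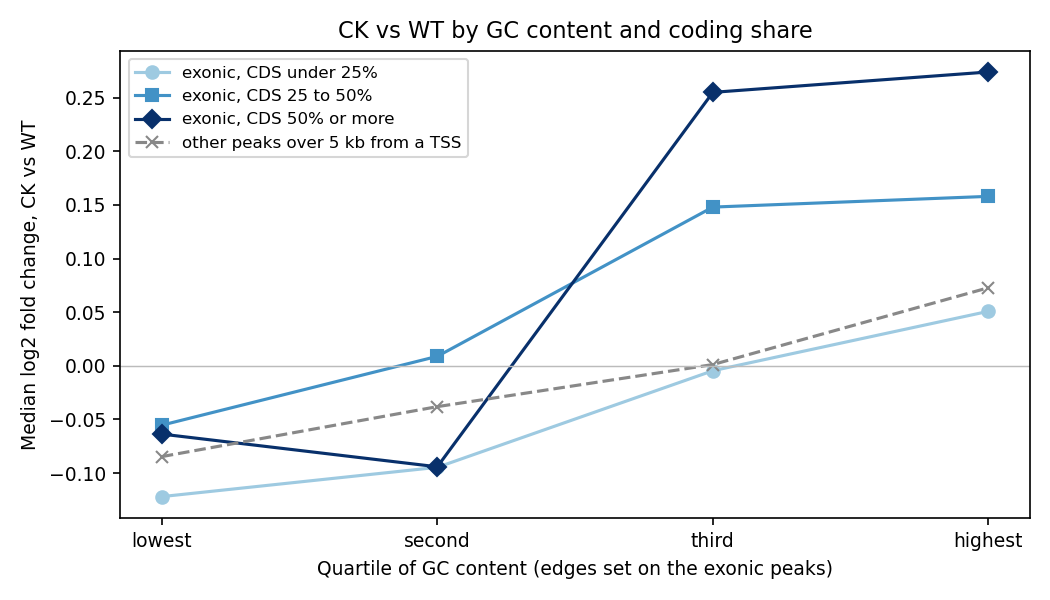
Median log2 fold change in CK against WT by quartile of GC content, for exonic peaks in 3 classes of CDS share and for other peaks over 5 kb from a TSS (dashed). In all 4 sets the median is higher in the highest than in the lowest quartile (-0.12 and 0.05 for peaks under 25% CDS), and it reaches 0.27 for peaks of 50% or more CDS in the highest quartile.

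Exon length and place showed related values. Peaks whose exon was at most 200 bp (1354) had 26 gained and 76 lost in CK, those over 500 and up to 1000 bp (74) had 12 and 0, and those over 1000 bp (74) had 9 and 1. On last coding exons 24 of 313 peaks were gained (7.67%) and 10 lost (3.19%). On inner coding exons 32 of 1438 were gained (2.23%) and 74 lost (5.15%). With level, the lost share rose far more than the gained share. In the lowest quartile of WT CPM, quartile 1, 9 of 461 were gained (1.95%) and 1 lost (0.217%). In quartiles 2 and 3, 2.6% and 4.99% were gained and 1.74% and 6.51% lost. In the highest, 15 of 461 were gained (3.25%) and 55 lost (11.9%). Other peaks over 5000 bp from a TSS had similar lost shares, with 82 gained (1.42%) and 617 lost (10.7%) among 5771 at that highest level. From the lowest to the highest quartile, the median log2 fold change of exonic peaks went from 0.13 to -0.10 in CK. In C it went from 0.07 to -0.02. The quartiles were cut on WT CPM, which also enters the fold change, and low counts limit calls. What these contribute was not tested. The peaks with the longest CDS overlaps did not pass in any genotype: Mki67, a proliferation marker, with 2663 bp (4.15, 3.66, 4.73 and 4.26 CPM in WT, 3.2, 3.39, 3.74, 4.03 and 3.8 in CK), Ankrd11 with 1901 bp and Zbtb38 with 1644 bp.

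Gene groups of GCB biology are small and are read beside 3.54% gained and 3.3% lost of all peaks in CK and 5.10% lost of exonic peaks. In GC transcription factor genes, 2 of 14 exonic peaks passed, both lost in CK (median log2 fold change of the 14 in CK -0.07). Prdm1, the plasma cell regulator Blimp1, was at 11.5, 11.4, 12.1 and 12.9 CPM in WT and 9.75, 9.53, 9.66, 8.42 and 8.41 in CK (chr10:44447834-44450426, -0.39 ± 0.088, edgeR adjusted p = 0.00399). Ikzf1, the lymphoid regulator Ikaros, was at 22.5, 23.8, 24 and 33.4 CPM in WT and 16.7, 17, 20, 19.1 and 21.1 in CK (chr11:11758075-11760032, -0.46 ± 0.10, edgeR adjusted p = 0.00319). The groups did not overlap in either. Of 22 peaks in B cell receptor, NF-kB and T cell help genes (median -0.01 in CK), 1 was lost in K and CK, that of Il21r, the receptor of a T follicular helper cytokine (chr7:125630002-125630774). It was at 18.9, 18.5, 18.7 and 21.8 CPM in WT, 18.5, 18.6, 20.2 and 21.5 in C mice, 13.9, 13.7, 15.4 and 15.6 in K, and 16.1, 14.3, 17.3, 14 and 13.8 in CK, so that K and CK were below every WT and C mouse. Its log2 fold change was -0.41 ± 0.086 in K (edgeR adjusted p = 0.00673) and -0.36 ± 0.081 in CK (0.0034). None of 5 peaks of GC positioning and survival genes (median -0.21) passed, and the highest, in the follicle-homing receptor Cxcr5, was at -0.21 ± 0.060 in CK (edgeR adjusted p = 0.017).

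Of 20 peaks in chromatin regulator genes, 1 was lost in K and 2 in CK (median -0.12), beside 0.828% and 3.3% lost of all peaks. Bptf, the large subunit of the NURF remodeler, was at 17.8, 18.4, 19.5 and 23.1 CPM in WT, 12.8, 12.1, 13.1 and 12.6 in K and 11.6, 8.02, 7.19, 11.7 and 14.3 in CK (chr11:107081116-107083509, -0.90 ± 0.13 in CK, edgeR adjusted p = 5.54e-05). Asxl2, a Polycomb-related gene, fell by 0.47 ± 0.12 in CK (edgeR adjusted p = 0.00993). Of the floxed genes, Crebbp had no exonic peak and Kmt2d had 1, on its coding exon 39 of 54, which is too weak to serve as a check of the deletion: 0.319, 0.261, 0.234 and 0.443 CPM in WT and 0.106, 0.113, 0.366 and 0 in K, where 3 counts would be 0.138 to 0.17 CPM. It was not called (-1.09 ± 0.64 in K, edgeR adjusted p = 0.346).

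Gene groups not chosen for GCB biology were also counted, beside 3.54% gained and 3.3% lost of all peaks in CK. Of 44 peaks in ion channel and neurotransmitter receptor genes, 5 were gained and 3 lost in CK (median 0.09), the lost Cacna1d, a calcium channel gene, falling by 0.39 ± 0.063 (edgeR adjusted p = 0.000224). Of 33 in C2H2 zinc finger genes, 5 were gained and 3 lost (median 0.07). The Ikzf1 peak given above is among these lost peaks, so it is counted in both groups. Among the most accessible of the 33, Zfp771 and Zfp697 were not called, with log2 fold changes of 0.07 and 0.06. Of 29 in cadherin, collagen and matrix genes, 2 were gained, Cdh22 (0.38 ± 0.079, edgeR adjusted p = 0.00215) and Col8a2 (0.40 ± 0.079, 0.00132). Of the 6 exonic peaks of Slit1, a guidance gene, and the 6 of Akap13, a signaling scaffold, none passed. In Fam129a, 2 of 4 peaks were gained in CK, the larger by CDS at the last coding exon, 14 (17.5, 14.9, 13.5 and 17.9 CPM in WT, 21.2, 25, 22.8, 18.2 and 21.6 in CK; 0.45 ± 0.091, edgeR adjusted p = 0.00157), and none of the 4 of Snx29 passed.

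A peak within 1000 bp of the host gene's start was found for 1505 exonic peaks. Among the 44 of these gained in CK, the host's start peak was gained too for 7, in Col8a2, Fam129a, Foxo6, Il1rap, Mapt and Ret, and lost for none. Among the 76 lost in CK, it was lost for 0 and gained for 4. The start peaks of these hosts had median log2 fold changes of 0.15 and 0.03. Of all TSS-near peaks, 5.4% were gained and 2.76% lost in CK, with a median log2 fold change of 0.03. The counts of called start peaks were not tested against these shares. Across the 1505 pairs, the log2 fold changes of exonic and start peak correlated at r = 0.251, where both come from the same libraries and genes with several exonic peaks enter more than once.

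Short motifs were counted on both strands in the central 500 bp of each peak, as letters only. The E-box CAGGTG was in 43.3% of exonic and 36.1% of all autosomal peaks, and the core CCANNAGGG of the CTCF motif in 13.8% and 11.5%. The ETS letters CCGGAAG were in 4.50% and 6.15%, and TGANTCA, bound by AP-1 factors, in 14.3% and 14.2%. The MEF2 core CTANNNNTA was in 38.9% of exonic, 38.6% of all autosomal and 46.9% of intronic peaks. It was in 49 of the 94 lost in CK (52.1%) and 16 of the 59 gained (27.1%), which differ in median GC content (44.5% and 55.5%). The CTCF letters were in 3 of the lost peaks (3.19%) and 5 of the gained (8.47%), both below the share of exonic peaks, and the ETS letters in 1 and 2. The E-box was in 41 and 22, AP-1 in 16 and 8 and octamer in 6 and 1 of the lost and gained peaks, and the other motifs in 4 to 13 and 3 to 7. The motifs GAGGAAGT (SPI1), ATGCAAAT (octamer), GGAANNGAA (ETS with IRF), TTCCNNGAA (STAT) and TGTGGTT (RUNX) were in 7.32%, 5.75%, 16.3%, 6.67% and 12% of exonic peaks, against 8.16%, 5.98%, 17.1%, 6.74% and 13.3% of all, and GGAA letters are shared by several of them.

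At the edges of the rule, the 219 peaks with 50 to 69 bp of CDS had a median log2 fold change of -0.07 in CK with 3 gained and 15 lost, and the 139 with 30 to 49 bp, just outside, -0.08 with 1 and 9. The 237 peaks that passed the TSS distance by at most 1000 bp had a median of -0.02 with 7 and 17, and the 270 that missed it by less than 1000 bp 0.00 with 16 and 10.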

How the data were processed

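ATAC-seq of sorted GCB cells was aligned by the authors to mm10 with the nf-core ATAC-seq pipeline. The deposited table holds raw read counts (fragments) per consensus peak, from featureCounts 2.0.1 with multi-overlap allowed and a minimum overlap fraction of 0.2, per the file headers. Peaks were called before deposit, so sites closed in all libraries are not measured. Libraries of sorted centroblasts and centrocytes were not analysed here.

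Peaks were placed on GENCODE M21 genes. Counts of 17 libraries were tested with edgeR 4.0.16 (TMM, quasi-likelihood, 1 coefficient per genotype, filter of 10 summed counts, which removed 0 peaks). Levels are TMM-scaled CPM. The test was tested on simulated counts. Alternatives were DESeq2 1.42.0 and its size factors, offsets in 20 GC content bins, loess offsets, a mean of 20 counts, other thresholds and rules, a Y chromosome covariate, a replicate block and leaving out each mouse. Replicates differed beyond sampling noise (chi-square per degree of freedom 1.47 to 3.80).

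Named peaks were, per comparison with WT, up to 6 gained and 6 lost with the lowest adjusted p and no overlap of mice, up to 4 per comparison of mutants, the 10 highest per kb, called or highest peaks of gene lists, hosts with most peaks, the 3 longest CDS overlaps and the floxed genes, and 3 of these peaks are not reported here. Members and lists were chosen with earlier results of these data known.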

Additional observations from a re-analysis of the deposited data

Results flagged for a closer look

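Among 77 named exonic peaks, 308 groups of 4 or 5 mice were examined for a single mouse far from the others by Dixon's gap test, and 19 stood out. Chance alone gives about 1 in 20 such groups. In WT, mouse 4 stood out most often: it was high at Ikzf1 (33.4 CPM, others 22.5 to 24), Il21r (21.8, others 18.5 to 18.9) and the Snx29 peak at 11658434 (41.7, others 28 to 28.9), and low at the Slit1 peak at 41633802 (13.3, others 17.4 to 18.3). WT mouse 3 was low at Siglec15 (23.5, others 27.5 to 28.3).

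In C, mouse 1 was high at 1700061G19Rik (5.24, others 4.56 to 4.67) and low at Zbtb38 (8.4, others at 10.2). Mouse 2 was high at the Slit1 peak at 41629593 (3.92, others 2.53 to 2.76), mouse 3 low at the Ryr1 peak at 29015064 (0.809, others 1.38 to 1.44) and mouse 4 high at the Slit1 peak at 41652092 (13.5, others 12 to 12.1). In K, mouse 3 was low at Siglec15 (29.7, others 32 to 32.2) and at the Fam129a peak at 151706033 (5.86, others 7.24 to 7.38), and mouse 4 was high at Cxcr5 (47.1, others 40.9 to 41.8).

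In CK, mouse 5 was high at Lrrfip1 (10.9, others 4.53 to 5.54) and at the Akap13 peak at 75685108 (32.8, others 30.4 to 31.1). Mouse 4 was high at Bmp1 (2.64, others 0.634 to 1.09) and Kndc1 (6.13, others 5.6 to 5.73), mouse 3 was low at Myo3b (40.6, others 42.9 to 43.5) and mouse 2 high at the Fam129a peak at 151706033 (9.69, others 5.73 to 6.87). No cause of these gaps was tested.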

How the results depend on the processing

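Counts of called exonic peaks depended most on the threshold, the rule and single mice. At an adjusted p of 0.05 C had 3 gained and 5 lost, K had 52 and 78, and CK had 138 and 197, with 1 in CK against K, 137 in CK against C, 84 in K against C and 1 for CK against the sum. With a fold change above 1.5 they were 6 and 15 in K, 26 and 38 in CK, 17 in CK against C and 14 in K against C. Whether the replicate numbers pair the mice is not settled. Of 24 same-numbered pairs, 12 correlated above 0.1 (range -0.09 to 0.22), and pairs of other numbers ran from -0.24 to 0.27. A replicate block gave 2 gained and 7 lost in C, 26 and 55 in K, 154 lost in CK, 1 in CK against K, 95 in CK against C and 62 in K against C. DESeq2 gave 2 gained in C, 2 in CK against K, 70 in CK against C, 47 in K against C and 1 for the sum. The Y signal covariate gave 2 gained and 4 lost in C and 69 in CK against C, fits of only the compared genotypes 3 gained and 8 lost in C, and GC offsets 2 gained in C.

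Peaks of at least 50% CDS held 0 gained and 0 lost in C, 1 and 0 for K, 14 and 0 for CK, 5 in CK against C and 2 in K against C, with medians of 0.058, 0.193 and 0.204 and per-mouse differences of 0.059, 0.182 and 0.198 in C, K and CK. Beyond 10 kb there were 0 lost in C, 5 and 17 in K, 25 and 46 in CK, and 22 in CK against C. A CDS overlap of 1 bp and TSSs of protein-coding genes alone each gave 2 gained in C, and leaving out the C-rich windows gave 0 gained and 1 lost in C.

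Leaving out 1 mouse at a time gave 1 to 2 gained and 1 to 5 lost in C, for K 6 to 14 and 7 to 34, for CK 24 to 61 and 43 to 116, 0 to 2 in CK against K, 13 to 53 in CK against C, 9 to 32 in K against C and 0 to 1 for the sum. Several mice moved them by over 1.5 times: without WT mouse 4 there were 6 and 7 in K and 24 and 43 in CK, without WT mouse 3 there were 6 and 16 in K and 32 and 60 in CK, without WT mouse 2 there were 7 and 20 in K, without K mouse 1 there were 7 and 8 in K, without K mouse 3 there were 20 lost in K, and without CK mouse 1 there were 39 gained in CK. For CK against C the counts were 26, 24 and 13 without C mice 2, 3 and 4 and 20 and 27 without CK mice 1 and 4. For K against C they were 11, 17, 16 and 9 without C mice 1 to 4, and 9 and 14 without K mice 1 and 4. These fits have fewer samples, and no other cause was tested. Medians and per-mouse differences over all exonic peaks moved by less than the SD between WT mice without any mouse. A median of 81.7 counts per library, and 32.3 in peaks of at least 50% CDS, limits small changes.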
